A study of Drosophila melanogaster with 2 samples.

Results

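Accessible chromatin of chromosome 4 was described in mushroom body (MB) nuclei of naive Drosophila melanogaster. The members were all ATAC-seq peaks that the deposited lists placed on chromosome 4, which were 192 of 13868 peaks in replicate 1 and 200 of 14583 peaks in replicate 2. Peaks that shared at least 1 bp were merged into 222 regions, of 15842 in the whole genome, and 150 of them held a peak from each replicate. These 150 are called consensus regions, of 11705 in the whole genome. In ATAC-seq, the Tn5 transposase cuts open DNA and adds sequencing adapters, so that a peak marks a stretch with more insertions than its surroundings. Both libraries came from flies of the genotype w*;UAS-Unc84::2xGFP/+;R14H06-Gal4/+, in which a GFP-tagged nuclear envelope protein is driven by an MB enhancer fragment, and which the study's methods describe as males. Nuclei were pulled from whole heads with anti-GFP beads, in pools of 50 to 60 heads, at an hour of the day matched to 1 h past the start of courtship training. There was 1 group with 2 biological replicates, so chromosome 4 was compared with the arms 2L, 3L and 3R within each library. A pool mixes all neurons that the driver labels, and fewer cells with an open site cannot be told apart from a less open site in each cell.

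The fourth chromosome, or dot chromosome, is the smallest of the fly. Its gene-bearing arm carries marks of heterochromatin over most of its length: the protein HP1, histone methylation of the silent type and many remnants of transposable elements (TEs). It hardly undergoes crossing over, and its genes are bound by the protein POF, which is known for acting on this chromosome. Even so, most of its genes are transcribed, and among them are ey and toy, the Pax6 homologs of the fly, of which ey is needed for MB development.

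The DNA at the strongest sites is shown first, since these summits carry the results on promoters below. Each line gives 201 bases of the plus strand centred on the summit, from the RefSeq copy of the dm6 assembly (Release 6 plus ISO1 MT), for the 6 strongest consensus regions and for both regions over start sites of ey. Capitals mark exact matches, on either strand, to any of 8 motifs searched: TATCGATA (DRE), GAGAGAG (GA repeat), CACACACA (CA repeat), CAGCTG (E-box), GGTCACACT (motif 1 core), TGACGTCA (CRE), TATAAAAG (TATA box) and TAATTA (homeodomain core).
CG11360 (chr4:671099-671299): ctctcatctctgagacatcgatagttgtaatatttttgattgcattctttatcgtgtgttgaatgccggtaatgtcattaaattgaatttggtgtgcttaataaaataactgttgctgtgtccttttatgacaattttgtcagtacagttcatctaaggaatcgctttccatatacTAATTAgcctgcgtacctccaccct
Sox102F (chr4:807885-808085): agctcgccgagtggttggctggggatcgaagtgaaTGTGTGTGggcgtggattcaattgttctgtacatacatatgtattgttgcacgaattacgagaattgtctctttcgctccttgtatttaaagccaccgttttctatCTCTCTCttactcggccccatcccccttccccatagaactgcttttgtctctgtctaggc
mGluR (chr4:936484-936684): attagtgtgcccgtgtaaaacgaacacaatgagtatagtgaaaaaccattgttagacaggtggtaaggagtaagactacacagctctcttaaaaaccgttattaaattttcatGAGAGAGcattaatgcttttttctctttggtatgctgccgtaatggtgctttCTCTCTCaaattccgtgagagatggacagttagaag
toy (chr4:989513-989713): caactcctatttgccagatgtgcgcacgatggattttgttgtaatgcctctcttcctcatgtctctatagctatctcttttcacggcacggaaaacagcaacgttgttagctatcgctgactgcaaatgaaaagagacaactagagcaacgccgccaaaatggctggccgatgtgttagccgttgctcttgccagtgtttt
PlexB (chr4:43642-43842): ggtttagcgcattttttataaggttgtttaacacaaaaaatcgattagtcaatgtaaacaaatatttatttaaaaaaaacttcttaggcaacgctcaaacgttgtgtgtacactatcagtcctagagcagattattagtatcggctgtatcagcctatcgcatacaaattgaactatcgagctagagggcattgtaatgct
CG31998 (chr4:205878-206078): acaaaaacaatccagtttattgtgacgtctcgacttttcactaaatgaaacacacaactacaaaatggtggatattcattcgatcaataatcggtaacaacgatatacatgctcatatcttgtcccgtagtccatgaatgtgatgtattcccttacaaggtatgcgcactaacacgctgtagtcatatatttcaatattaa
ey, stronger region (chr4:704388-704588): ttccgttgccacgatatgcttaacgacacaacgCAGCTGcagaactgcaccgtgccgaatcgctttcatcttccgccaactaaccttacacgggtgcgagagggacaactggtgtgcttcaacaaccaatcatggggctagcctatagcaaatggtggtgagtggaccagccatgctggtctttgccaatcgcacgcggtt
ey, upstream region (chr4:696905-697105): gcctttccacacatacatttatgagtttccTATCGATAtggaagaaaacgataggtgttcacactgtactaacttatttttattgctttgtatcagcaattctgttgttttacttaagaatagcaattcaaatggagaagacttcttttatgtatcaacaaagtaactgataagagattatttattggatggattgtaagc
The summit at CG11360 held a TAATTA 76 bp from the summit, that at Sox102F held a CA repeat and a GA repeat on the minus strand, that at mGluR held a GA repeat on each strand, and that at the stronger ey region held a CAGCTG. The upstream ey region held the DRE letters. The windows at toy, PlexB and CG31998 held no match to these letters.

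The label was checked on marker genes. Each of 8 MB genes (ey, dac, Fas2, rut, prt, Dop1R2, trio and mub) had a peak within 500 bp of a transcription start site (TSS) in both replicates, while 3 of 16 marker genes of other head cells had one (moody of glia, norpA of photoreceptors and apolpp of fat body) and none of muscle or blood did in both. Over all protein-coding genes of 2L, 3L and 3R the share was 55.8%. The paper describes the driver's enhancer as one of Adcy1, formerly rutabaga (rut). The peak at rut is therefore not independent of how the nuclei were selected. The background under the summits, solved from the deposited values, was lowest at 82.9 fragments in replicate 1 and 88.6 in replicate 2. The lists name no read totals.

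The first comparison asked whether peaks on chromosome 4 were weaker or stronger than on the large arms. Fold enrichment is the ratio of fragments at the summit to the background. On chromosome 4 its median was 1.87 in replicate 1 and 1.78 in replicate 2, against 1.94 and 1.84 on 2L, 3L and 3R together. The difference was small, at -0.0670 ± 0.00417 (SD, n = 2). It did not hold along the whole distribution. The upper quartile of fold enrichment on chromosome 4 was 3.23 and 3.07, against 2.88 and 2.72 on the arms. The highest decile of each library, by rank over all peaks, took 14.1% of the chromosome 4 peaks in replicate 1 and 13.5% in replicate 2, against 10.2% and 10.4% of those on the arms. The strongest peaks of the arms, with fold enrichments up to 8.94 and 7.90, were above the maximum of chromosome 4, which was 6.35 and 5.50. The lowest 25% of each library took 29.7% and 27% of the chromosome 4 peaks, against 26.4% and 26.5% of those on the arms, a smaller contrast than in the highest decile. The −log10 q had a median that was 13.9 and 11.7 on chromosome 4 and 16.7 and 14.3 on the arms.

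**Figure D1:**
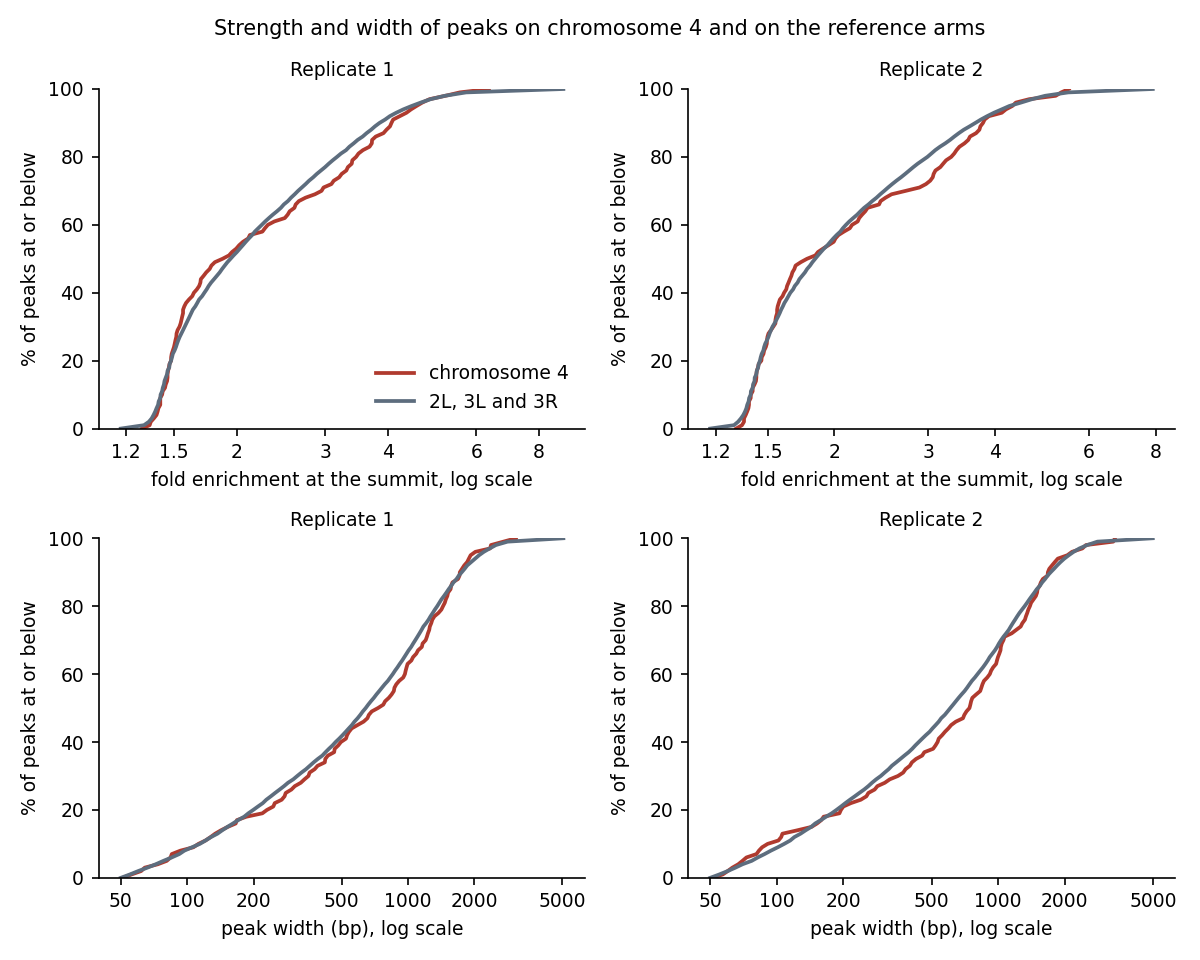
Cumulative share of peaks (percent, vertical axis) by fold enrichment at the summit (upper panels) and by width in bp (lower panels), both on log scales, for chromosome 4 (red) and 2L, 3L and 3R together (grey), with 1 column of panels per replicate. The red fold enrichment curve lies above the grey one near the median and under it at higher values, where the upper quartile of chromosome 4 was 3.23 in replicate 1 and 3.07 in replicate 2.

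The direction of this comparison depended on which peaks entered. Among peaks that cover a TSS, the median fold enrichment was 3.40 and 3.33 on chromosome 4, against 2.82 and 2.69 on the arms, a difference of 0.606 ± 0.0355 (SD, n = 2). Among peaks with a −log10 q of at least 5, the difference was 0.176 ± 0.155 (SD, n = 2). Among peaks shared by both replicates it was 0.111 ± 0.00612 (SD, n = 2). Without the peaks that touch a TE it was -0.167 ± 0.0209 (SD, n = 2). Each of these differences had the same sign in both replicates. With 2 replicates, the exact sign-flip permutation test (two-sided) cannot give a p below 0.5, and it gave p = 0.5 for the differences from the arms in strength, width, background, density, genes with an open promoter and peaks over start sites.

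Peaks on chromosome 4 were wider at the median and more numerous per Mb. The median peak measured 731 bp across in replicate 1 and 742 bp in replicate 2, against 643 and 608 bp on the arms, a difference of 111 ± 32.5 bp (SD, n = 2), while the difference in mean width was 44.2 ± 12.4 bp (SD, n = 2). The single arms had medians of 632 and 594 bp (2L), 631.5 and 605 bp (3L) and 663 and 625 bp (3R), so each was below chromosome 4 in both replicates. Peaks lay at 142 and 148 per Mb of chromosome 4 and at 109.8 and 115.4 per Mb of the arms. They covered 12.0% and 12.4% of chromosome 4, against 8.90% and 9.06% of the arms. The density of chromosome 4 was higher by 32.8 ± 0.243 peaks per Mb (SD, n = 2), by 17.6 when the pericentromeric ends of the arms were left out, and by 17.9 among peaks with a −log10 q of at least 5. Among the windows of this length on the arms, 13 of 55 in replicate 1 and 7 of 55 in replicate 2 had a median width at or above that of chromosome 4, and 10 and 7 of 60 had as many peaks or more, so neither value lay outside the range of the arms. The chromosome also has long genes, with a median length of 10.1 kb against 2.08 kb, and 1.78 TSS positions per protein-coding gene against 1.37.

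The solved background of the chromosome 4 summits was lower. The median background at the summit was 86.8 fragments in replicate 1 and 92.9 in replicate 2 on chromosome 4, against 100.7 and 106.2 on the arms, a difference of -13.6 ± 0.433 (SD, n = 2). At 42.2% and 42% of the chromosome 4 peaks the background was at the lowest value of the library, against 30.9% and 29.7% on the arms. So many peaks share this value that it acts as a floor, and differences below it cannot be seen. The summits themselves were also lower, with a median pileup of 193 and 196.5 fragments against 217 and 215. The background is the divisor of the fold enrichment, so pileup and fold enrichment are given side by side here. Chromosome 4 had 35.2% GC against 42% on the arms, and 84.3% of its 31-base words occur once in the assembly, against 88.3% on the arms. The part of base composition and of unique sequence in these differences was not tested.

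The next comparison asked where the regions lie. Of the 150 consensus regions, 74 covered a TSS (49.3%, Wilson 95% interval 41.4% to 57.3%), against a background of 49.4% on the arms. A further 26 were within 3 kb of a TSS, and 50 were farther away. Counted per replicate, 38.0% and 36% of the chromosome 4 peaks covered a TSS, against 41.2% and 39.1% on the arms. The share over start sites was thus close to that of the arms, and its direction depended on the significance cutoff: at a −log10 q of at least 5 it was 56.6% and 49.3% on chromosome 4 against 53.5% and 52.0%, with p = 1.0 in the exact sign-flip test.

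Away from start sites, peaks of chromosome 4 lay on exons more often than those of the arms did. Of the peaks, 25.5% in replicate 1 and 26.0% in replicate 2 were more than 3 kb from any TSS and touched an exon, against 5.85% and 5.98% on the arms. Peaks in introns that touched no exon made up 9.38% and 8.5%, against 19.6% and 20.3%. Taking only the summits, 41 of 77 such distal peaks of replicate 1 (53.2%, Wilson 95% interval 42.2% to 64.0%) and 47 of 84 of replicate 2 (56.0%, 45.3% to 66.1%) had the summit in an exon, against 13% and 13.6% on the arms. The distal sequence itself differed: 33.4% of the sequence more than 3 kb from a TSS is exonic on chromosome 4 and 11.8% on the arms. These distal exonic peaks were weak, with a median fold enrichment of 1.55 in both replicates, against 3.40 and 3.33 for the peaks over a TSS.

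**Figure D2:**
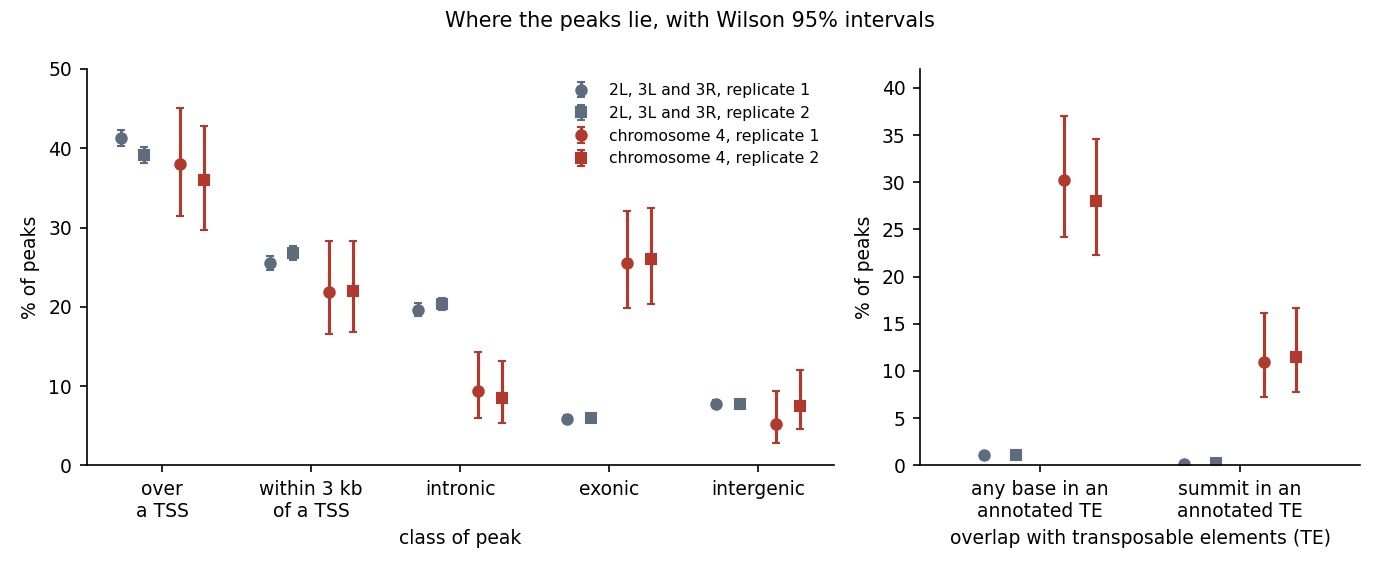
Percent of peaks in each position class (left) and percent of peaks that touch an annotated TE or have their summit in one (right), for chromosome 4 (red) and 2L, 3L and 3R together (grey). Circles are replicate 1, squares are replicate 2, and bars are Wilson 95% intervals; exonic, intronic and intergenic peaks are more than 3 kb from any TSS. The exonic class held 25.5% and 26.0% of the chromosome 4 peaks, and 30.2% and 28.0% of them touched a TE.

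Nearly all genes of chromosome 4 had an accessible promoter. A peak lay within 500 bp of a TSS at 72 of 80 protein-coding genes in replicate 1 and at 71 in replicate 2. The 71 genes had one in both replicates, which is 88.8% (Wilson 95% interval 80% to 94.0%), against a background of 55.8% on 2L, 3L and 3R. The single arms had 53.0% (2L), 55.9% (3L) and 57.8% (3R), so they differed from each other far less than from chromosome 4. The difference was 32.2 ± 0.844 percentage points (SD, n = 2). When the arms were divided into windows of the length of chromosome 4, this share ranged from 34% to 71.7% in replicate 1 and from 33.6% to 70.4% in replicate 2 over the 55 windows with at least 20 genes and peaks, all below the 90% and 88.8% of chromosome 4. Of the windows left out, 1 on 3L had 77.8% of 9 genes and 1 on 3R had 83.3% of 6 genes, in both replicates. The rest of those left out, with at most 5 genes each, had 20% or 0%. The shares of chromosome 4 are counts over genes of 1 chromosome in 2 libraries, and the intervals cover counting error only.

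The length of the genes went along with part of this difference. Among genes under 5 kb, 15 of 18 on chromosome 4 (83.3%, Wilson 95% interval 60.8% to 94.2%) had a TSS peak in both replicates, against 47.8% of 6711 on the arms. Among genes from 5 to 20 kb, the shares were 89.8% (44 of 49) and 77.5%. Among genes of 20 kb or more, they were 92.3% (12 of 13, Wilson 95% interval 66.7% to 98.6%) and 90.3%, so a difference could not be told at this number of genes. For genes of at least 5 kb together, a split chosen after the data were seen, the difference was 8.86 ± 1.17 percentage points (SD, n = 2). Among genes with 1 annotated TSS position it was 40.3 ± 0.0213 percentage points (SD, n = 2), with 38 of 42 genes on chromosome 4.

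**Figure D3:**
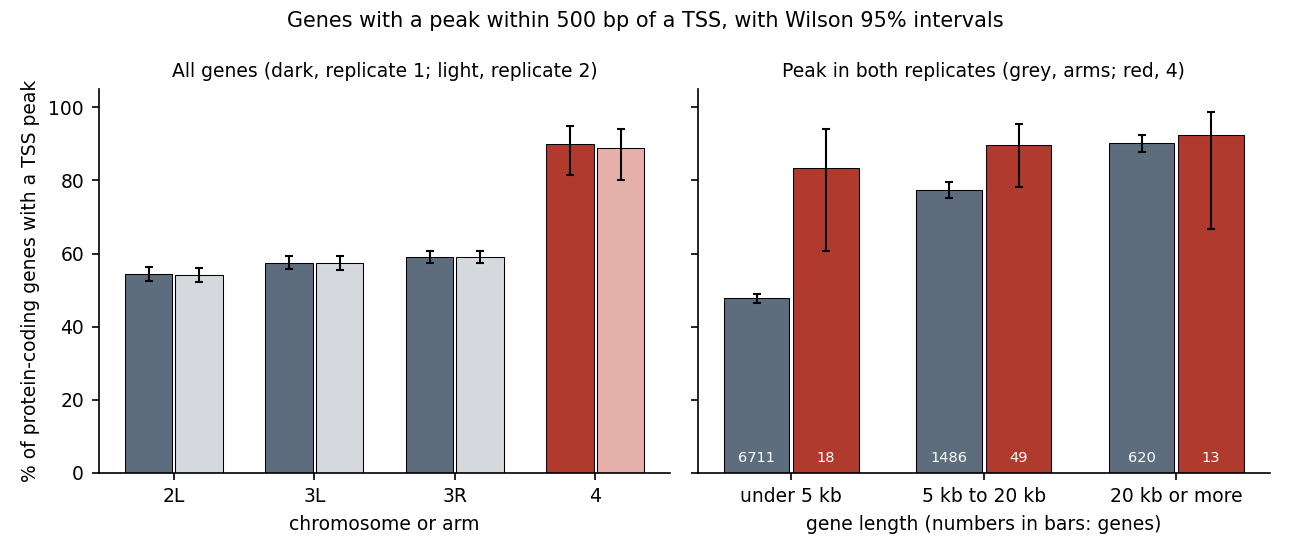
Percent of protein-coding genes with a peak within 500 bp of any annotated TSS, with Wilson 95% intervals. On the left, chromosome 4 stands at 90% in replicate 1 (dark) and 88.8% in replicate 2 (light), and the 3 arms between 54.2% and 59.2%; on the right, genes with a peak in both replicates are divided by length for the arms (grey) and chromosome 4 (red), and the bars come closest among genes of 20 kb or more, at 90.3% and 92.3%.

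The promoters were also strong by fold enrichment. For each gene, the strongest peak within 500 bp of a TSS was ranked within its library. The ranking took in the protein-coding genes of chromosome 4, 2L, 3L and 3R that had such a peak. The median fold enrichment of these TSS peaks on chromosome 4 was 3.56 and 3.41 over the genes with a peak in both replicates, against 2.86 and 2.72 on the arms, and their median percentile was 74.0 against 50.7. Several neighbours share 1 peak between divergent start sites, such as Pur-alpha and Tdg, ND-49 and Ephrin, Cals and Arf4, or Cadps and Dyrk3, and these pairs have the same values. This difference was smaller among long genes. For genes of 20 kb or more the median percentile was 81.7 on chromosome 4 and 80.1 on the arms, and for genes under 5 kb it was 58.8 and 40.7. The divisor was also lower here. Peaks that cover a TSS had a median background of 108.9 and 115.7 fragments on chromosome 4, against 128.7 and 133.8 on the arms. The part of this lower background in the strength of the promoters was not tested. More than 1 consensus region lay within 500 bp of a TSS at 15 of 80 genes (18.8%, Wilson 95% interval 11.7% to 28.7%), against 5.59% on the arms. This counts regions and not promoters, since myo and PlexA had 2 such regions but have 1 TSS position. Asator, a kinase gene related to tau tubulin kinases, had 4 such regions and has 5 TSS positions.

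The transcription factor genes had the highest median percentile of the lists. Each of the 13 listed factors had an open promoter in both replicates, against 71 of 80 (88.8%) genes of the chromosome, with a median percentile of 84.4 and a range from 31.7 to 98.5. The highest was Sox102F, a SoxD factor, with a fold enrichment of 5.55 (Poisson 95% interval 5.12 to 6.02) in replicate 1 and 5.50 (5.08 to 5.94) in replicate 2. The Pax6 homolog toy had 5.37 and 5.28. The Pax family gene sv, known for sense organ development, had 4.9 and 4.63. The MB gene ey had 4.56 (4.24 to 4.91) and 4.62 (4.31 to 4.96), with the intervals overlapping between replicates. Next came dati (4.39 and 4.37), a zinc finger gene, NfI (4.43 and 4.19), of the nuclear factor I family, and fd102C (4.06 and 3.75), a forkhead gene. The Polycomb recruiter pho (3.72 and 3.68) and pan (3.72 and 3.63), the TCF factor at the end of the Wnt pathway, were lower, at percentiles of 79.1 and 78.6. The weakest promoters of the list were those of ci (2.06 and 2.44), the effector of Hedgehog signalling, zfh2 (2.47 and 2.24), a zinc finger and homeodomain factor, and Mitf (2.77 and 2.43), known for the control of lysosomal genes. The gene bodies of the 13 factors touched 39 consensus regions.

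The genes of neuronal signalling and the synapse covered a wide range. An open promoter was found at each of the 15 in both replicates, against 71 of 80 (88.8%) genes of the chromosome. Their median percentile was 67.7, with a range from 13.7 to 98.4. The metabotropic glutamate receptor gene mGluR was the highest at 5.63 and 5.37, followed by the semaphorin receptor gene PlexB at 5.17 and 5.2. The other semaphorin receptor gene, PlexA, was near the bottom at 1.93 and 1.99, so both plexin promoters of the chromosome were far apart in each replicate. The vesicle priming gene unc-13 had separate open promoters, at chr4:892176-894308 with 4.13 and 3.16 and at chr4:903853-905862 with 4.04 and 3.74, and a different one was the stronger in each replicate. The genes Syt7 and Cadps, which act in calcium-triggered and dense-core vesicle release, had 3.30 and 3.06 and 3.23 and 3.09. The receptor Eph (3.40 and 3.52) and its ligand Ephrin (3.7 and 3.35) were close to each other. Ekar, a kainate-type glutamate receptor known from photoreceptors, had 2.06 and 1.47, the lowest of the list in replicate 2, while PlexA was the lowest in replicate 1. The 2 values of Ekar come from different sites. In replicate 1 the peak was 3080 bp wide with its summit in a mariner2 copy, and in replicate 2 it was a separate peak at chr4:646229-647000. The kinase gene CaMKII, central to calcium signalling in memory and in no list, had 2.90 and 2.98.

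**Figure D4:**
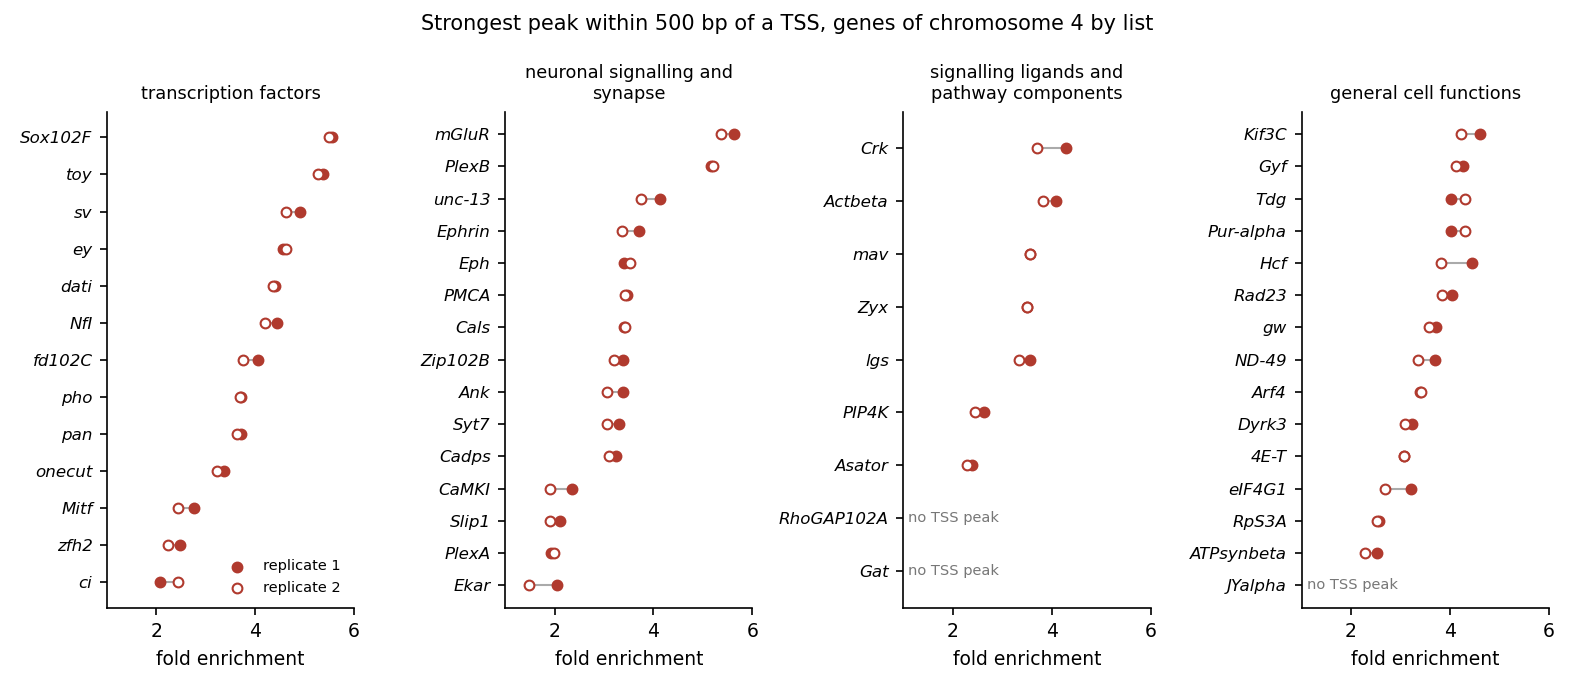
Fold enrichment of the strongest peak within 500 bp of a TSS (horizontal axis, ratio to background) for genes of chromosome 4 in 4 lists, with filled circles for replicate 1, open circles for replicate 2 and a grey line between them. All 13 transcription factor genes and all 15 neuronal genes have values, between 1.93 (PlexA) and 5.63 (mGluR) in replicate 1 and between 1.47 (Ekar) and 5.50 (Sox102F) in replicate 2, and RhoGAP102A, Gat and JYalpha have no TSS peak.

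The other lists are given beside the 88.8% of all 80 genes, and differences between lists were not tested. Of 9 genes for ligands and pathway components, 7 had a TSS peak in both replicates, led by the adaptor gene Crk (4.28 and 3.71) and the activin ligand gene Actbeta (4.09 and 3.82), and RhoGAP102A and Gat had none. Of 15 genes for general cell functions, 14 had one, with a median percentile of 76.3. Among these were Rad23 (4.04 and 3.84), of nucleotide excision repair, the ribosomal protein gene RpS3A (2.57 and 2.53) and ATPsynbeta (2.52 and 2.29), a subunit of the mitochondrial ATP synthase. The exception was JYalpha, a sodium pump gene known from spermatogenesis. It lies at chr4:879-5039, in the first 42.6 kb of the chromosome, where only 21.1% of the sequence words occur once in the assembly. Reads that map to several places were removed. A closed promoter and sequence in which reads cannot be placed can therefore not be told apart at JYalpha. Of 5 genes known from other tissues, 2 had a TSS peak, the lipophorin gene apolpp, which shares its peak with Zyx, and Ekar, while bt of muscle, yellow-h and the glial GABA transporter gene Gat had none. The 25 genes in no list had 21, with a median percentile of 64.8. The other genes without one in both replicates were CG1674, CG32006, CG33521 and CG33978, and CG33978 had a peak of 1.41 in replicate 1 only.

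By rank among all peaks of the library, the strongest region of the chromosome was over the TSS of CG11360 at chr4:669860-671641, with a fold enrichment of 6.35 (Poisson 95% interval 5.83 to 6.92) in replicate 1 and 5.32 (4.86 to 5.82) in replicate 2. The intervals do not overlap, but they cover counting error only, and fold enrichment is comparable only within a library. A difference between replicates at this region was not tested. It ranked at the 99.6 and 99.0 percentile of all peaks. The following places were held by the promoters of Sox102F (chr4:806974-808717), mGluR (chr4:936019-937754), toy (chr4:988963-990637) and PlexB (chr4:42557-44076), all with a mean percentile of at least 98.4. Then came CG31998 (chr4:205469-206521, 4.82 and 4.78), sv (chr4:1097686-1098642), ey (chr4:703608-705165), the region 291 bp from the TSS of fuss (chr4:978780-981153, 4.81 and 4.37), a gene of the Ski and Sno family, and CG32017 (chr4:1146129-1147135, 4.61 and 4.23). Of the 20 strongest, 18 covered a TSS, 2 were within 3 kb of one and 0 were farther away. The strongest region beyond 3 kb held rank 26. It lay in an intron of zfh2 at chr4:507081-508757, 5271 bp from the TSS, with a fold enrichment of 3.88 (3.66 to 4.11) and 3.76 (3.54 to 3.99). Its pileup of 1121 and 1083 fragments was the highest of any peak on the chromosome, over a background of 288 and 287. The zfh2 promoter itself was weaker, at 2.47 and 2.24.

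Some genes had several regions inside them. The gene bodies of toy and pan each touched 7 consensus regions, of which 6 in toy and 3 in pan were more than 3 kb from any TSS. At ey, 5 regions were found. The stronger promoter region (4.56 and 4.62) was joined by the upstream one at chr4:696434-697860 (2.88 and 2.79), by a region at chr4:712629-714238 that touches an exon (3.09 and 2.86), by an intronic one at chr4:715563-716171 (2.28 and 2.21) and by one at chr4:720208-721205 (2.29 and 2.1). The distal regions of toy were weak: its 6 regions lay between 1.49 and 1.76 in replicate 1 and between 1.55 and 1.7 in replicate 2, against 5.37 and 5.28 at its promoter.

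The widest regions spanned whole promoters and the sequence around them. The widest was at mav and mir-954 (chr4:623171-626542), 3372 bp long, where mav encodes a TGF-beta ligand. Regions at Cadps and Dyrk3 (chr4:1230081-1233451, 3371 bp), CaMKII (chr4:1050822-1054179, 3358 bp), Ekar (chr4:646187-649266, 3080 bp) and the antisense RNA asRNA:CR45126 (chr4:458318-461110, 2793 bp) followed. At mav, Cadps and Dyrk3, CaMKII and Ekar nearly the whole width was taken by 1 peak of 1 replicate (3356, 3371, 3311 and 3080 bp), and at asRNA:CR45126 the strongest peaks were 771 and 535 bp wide, so that its width came from joining peaks. Regions of 2 kb or more made up 9.33% of the consensus regions of chromosome 4 and 9.22% of those on the arms.

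The consensus regions were spread over most of the chromosome. Bins of 100 kb held from 0 to 20 of them, with 20 in the fifth bin and 0 in the last. The median gap between neighbours was 4.98 kb, close to the 4.99 kb of the arms. The longest gap was 63.7 kb, between chr4:722505 and chr4:786199, with 0 peaks in either replicate. It held the whole of bt (FBgn0005666, chr4:724400-776474), which encodes projectin, a giant protein of muscle, and 98.4% of the 31-base words in this gap are unique in the assembly. The last 67.3 kb, after the last consensus region, also held 0 peaks, but 96.7% of it is annotated as TE and only 8.75% of its 31-base words are unique. The first 42.6 kb had 0 peaks and 21.1% unique words. The authors removed reads that map to several places, so in these ends closed chromatin and sequence in which reads cannot be placed cannot be told apart.

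A further feature of chromosome 4 regions was their contact with TEs. These elements make up 24.8% of its sequence, against 5.2% of the arms. Of the chromosome 4 peaks, 58 in replicate 1 (30.2%, Wilson 95% interval 24.2% to 37.0%) and 56 in replicate 2 (28.0%, 22.2% to 34.6%) touched an annotated TE, against 1.09% and 1.08% on the arms. Of 55 windows of the arms, 1 in the pericentromeric end of 3L reached 33.3% and 29.4%, from 24 and 34 peaks, 1 in that of 2L with 47 and 56 peaks reached 21.3% and 23.2%, and the rest were lower. Among consensus regions the count was 47 of 150 (31.3%), against a background of 1.32%. The overlap was mostly with the flanks. TEs made up 6.99% and 7% of the bases in chromosome 4 peaks, less than their share of the sequence, and the summit fell in a TE at 10.9% and 11.5% of the peaks, against 0.120% and 0.197% on the arms. Peaks took in 3.40% and 3.51% of the TE bases of chromosome 4, against 0.374% and 0.379% of those on the arms. The authors removed reads that map to several places, so repeated TE sequence may be open without a peak. The part of this filter in these TE shares was not tested.

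The share of copies touched is given for the numerous families. INE-1, a short non-autonomous element that is abundant on this chromosome, has 344 copies, of which 37 (10.8%) were touched by a consensus region. The DNA transposon 1360, known for its link to silencing on chromosome 4, has 60 copies, of which 6 (10%) were touched. Of 17 copies of Cr1a, 2 were touched, and of 15 copies of the telomeric HeT-A, 1 was touched. The TART-A element, also telomeric, had 0 of 5 copies touched. HeT-Tag had 0 of 23, Tc1 0 of 10 and HB 0 of 9 copies touched, while 2 of 3 mariner2 copies and 1 of 3 R1A1 copies were touched. The 23 HeT-Tag copies took up only 0.538 kb together. Copies in which reads cannot be placed count as not touched here. These counts are small, and differences between families were not tested.

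Consensus regions with the summit inside a TE were weak. There were 11 of them (7.33%, Wilson 95% interval 4.14% to 12.7%), with a median percentile of 38.4 among all peaks and a range from 18.5 to 58.4. The other consensus regions of chromosome 4 had a median percentile of 64.4. The highest of the 11 lay in HeT-A at chr4:1280554-1280871, 48671 bp from the nearest TSS, that of Cadps, with fold enrichments of 2.12 and 2.22 and with 78.8% unique 31-base words. Next was a region near asRNA:CR45126, annotated with Cr1a and other elements, at chr4:455655-456659 (2.00 and 2.01). At Ekar the summit of the region over the TSS lay in a mariner2 copy. In intronic sequence of toy, 3 regions lay side by side in a stretch annotated as R1A1 and INE-1, with fold enrichments between 1.49 and 1.68 in replicate 1 and between 1.55 and 1.7 in replicate 2. Most chromosome 4 regions were in unique sequence, with at least 90% unique words in 146 of 150. Peaks were called only from reads placed at 1 locus, so a high share is built into the calling.

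The replicates matched well. Of the chromosome 4 peaks, 83.9% in replicate 1 (Wilson 95% interval 78.0% to 88.4%) and 79.5% in replicate 2 (73.4% to 84.5%) overlapped a peak of the other replicate, against a background of 86.6% and 82.8% on the arms. The merged regions were shared in 67.6% of cases on chromosome 4 (61.2% to 73.4%) and in 72.6% on the arms. Over the 134 regions with 1 peak from each replicate, the median distance between summits was 39.5 bp. Spearman's rho of the fold enrichments was 0.967 across regions, which share their libraries and are not independent. Of these 134, 84 had the higher fold enrichment in replicate 1, as did 4416 of 7110 on the arms.

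**Figure D5:**
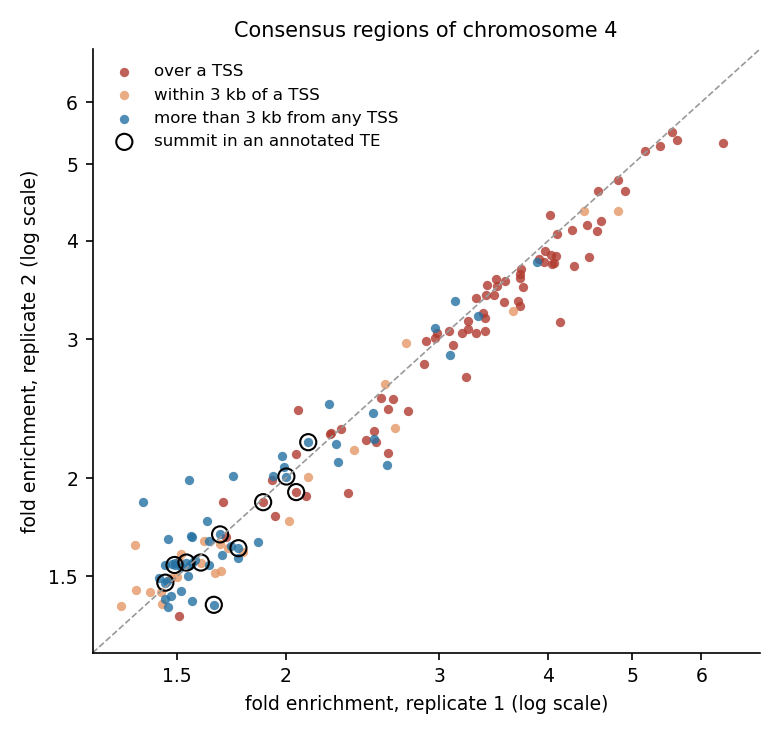
Fold enrichment of the 150 consensus regions of chromosome 4 in replicate 1 (horizontal) and replicate 2 (vertical), both on log scales, coloured by distance from a TSS, with the line of equal values dashed. Regions over a TSS fill the upper right, up to 6.35 and 5.32 at CG11360, and the 11 circled regions with the summit in a TE lie low, with 2.12 and 2.22 at the HeT-A copy as the highest.

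Regions of 1 replicate only were weak and narrow. There were 31 in replicate 1 and 41 in replicate 2, with median fold enrichments of 1.44 and 1.43 and median widths of 128 and 146 bp, against 1010.5 bp for the consensus regions. A TSS was covered by 0 of them in either replicate, against 52 of 1229 and 50 of 1660 such regions on the arms. Few of these regions covered a TSS on the arms also, so a difference could not be told at these numbers. A TE was touched by 10 of the 31 and 12 of the 41, a share close to that of all chromosome 4 peaks. The strongest of replicate 1 had 1.8 and lay in the same stretch of toy, in R1A1 and INE-1, at chr4:1000349-1000515. The strongest of replicate 2 had 1.65 and lay at chr4:883005-883261, 1534 bp from the TSS of asRNA:CR44029.

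Base composition and motif letters at the summits also set chromosome 4 apart from the arms. The median GC content of the 201 bp around the summits was 38.8% on chromosome 4 and 48.8% on the arms. CAGCTG was found in 10 of 150 windows on chromosome 4 (6.67%, Wilson 95% interval 3.66% to 11.8%). On the arms it was in 14.2% of the 7672 windows around consensus summits, which are the reference for all motifs here. Repeats were also less frequent, with GAGAGAG in 3 windows (2.00%, 0.682% to 5.71%) against 9.38%, and CACACACA in 4 (2.67%, 1.04% to 6.66%) against 12.3%. The DRE letters were in 5 windows (3.33%) against 2.67%, and in 4 of the 74 over a TSS (5.41%) against 5.01%. TATAAAAG was in 5 windows (3.33%, 1.43% to 7.57%) against 0.795%. Over a TSS it was in 2 of 74 (2.70%, 0.744% to 9.33%) against 1.06%. Of the 3 windows not over a TSS, 1 was in the HeT-A region, and those near unc-13 and Cals had the same letters beside the match. TAATTA was in 12 (8%) against 6.74%, and GGTCACACT was in 3 (2.00%) against 2.49%. TGACGTCA was in 0 of 150 windows, which allows a share of up to 2.50% (Wilson), against 0.521%. A match is a description of the letters, and the GC content differs between the sets, so its part in these shares was not tested.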

How the data were processed

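Chromatin accessibility was measured by ATAC-seq in 2 replicates of MB nuclei. The authors trimmed reads with Trimmomatic (v0.39), aligned them with Bowtie2 (v2.4.1) to dm6, shifted them for Tn5, removed duplicates and reads placed at several loci, and called peaks per replicate with MACS2 (v2.1.2) at a q-value of 0.01. No control library was named. The deposited lists give, per peak, its position, the fold enrichment (a ratio to the background), the −log10 of the p-value, the −log10 of the q-value, an integer score made from the latter (not used), and the offset of the summit. The pileup and background were solved from fold enrichment (pseudocount 1) and the p-value, and all pileups came out within 0.0221 of whole numbers in both replicates.

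Overlapping peaks (at least 1 bp) were merged. The annotation of genes, exons and TEs was Ensembl release 115 of this assembly, and sequence was from RefSeq. Per-replicate values of chromosome 4 and of 2L, 3L and 3R were set side by side, and their differences were tested with the exact sign-flip permutation test over replicates. Shares have Wilson 95% intervals and fold enrichments exact Poisson 95% intervals at a fixed background, for counting error only. Scripts ran in Python 3.11.15 (numpy 2.4.6, pandas 2.3.3, scipy 1.17.1) and were tested on simulated data.

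The members, gene lists and motifs were chosen with earlier results of these data known. Of 80 protein-coding genes, 55 were in a list. Named were these genes, the 10 strongest and 5 widest consensus regions, the strongest peak of each replicate alone, and regions beyond 3 kb among the 20 strongest. The zfh2 intron, the regions inside ey, toy and pan, the gap over bt, the regions in TEs, CaMKII, and the genes without a TSS peak were named after their values were seen. The symbols Arf102F and Thd1 are Arf4 and Tdg in the annotation, and Caps is a synonym of Cadps.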

Additional observations from a re-analysis of the deposited data

How the results depend on the processing

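The exact sign-flip test over 2 replicates cannot pass a threshold, so only directions were compared. Peak strength on chromosome 4 against the arms, a difference in median fold enrichment of -0.0670, turned to 0.176 at a −log10 q of at least 5, to 0.606 for peaks that cover a TSS and to 0.111 for peaks shared by both replicates, the last chosen after the data were seen. The share of peaks over a TSS turned from a difference of -3.18 to 0.198 percentage points at a −log10 q of at least 5, with opposite signs in the replicates. The other 38 values kept their direction and, for counts, stayed within 1.5 times. Leaving out each replicate in turn gave differences from -0.0700 to -0.0641 for fold enrichment, from 88 to 134 bp for width, from -13.9 to -13.3 for background, from 32.6 to 33.0 for peaks per Mb, from 31.6 to 32.8 percentage points for genes with a TSS peak and from -3.23 to -3.13 for peaks over a TSS. A reciprocal overlap of at least 50% left 125 of the 150 consensus regions, and a −log10 q of at least 5 left 121. Genes of at least 5 kb and genes with 1 TSS position were also alternatives chosen after the data were seen, and the first moved the difference in genes with a TSS peak from 32.2 to 8.86 percentage points. No paired analysis was possible because all samples belong to 1 group, and the comparison of chromosomes was made within each library.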

Other observations

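Genes of chromosome 4 in no list, named after their values were seen, spanned the whole range of promoter strength. MED26, a subunit of the Mediator complex, had fold enrichments of 4.55 and 4.12 at its TSS, and Arl4, a small GTPase gene, had 4.10 and 4.08. The lowest TSS peak of the chromosome was at Mpv17, with 1.35 and 1.44, and CG11155 had 1.71 and 1.68. CG33941 had 3.71 in replicate 1 and 1.79 in replicate 2. In replicate 1 its TSS peak was the one it shared with Taf3, for which the values were 3.71 and 3.30.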
